A study of Mus musculus with 18 samples.

Results

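Killer cell lectin-like receptors are surface proteins named from natural killer cells, and 7 of their genes (Klrg1, Klrd1, Klrc1, Klrc2, Klrk1, Klra7 and Klre1) are described here across T cells of tumour and spleen. The members were listed by gene symbol and are measured by 12 of the 46237 probes of the array, which carry 21946 named genes in all. A further 21 genes whose symbol starts with Klr have 38 probes. The samples are 18 arrays of sorted T cells from female C57BL/6 mice of the genotype Foxp3-GFP-DTR-CD90.1, each injected under the skin with 50000 cells of B16F10, a transplantable mouse melanoma line. Tumours and spleens were taken at a tumour diameter of about 10 mm, and cells were pooled before sorting.

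The 6 groups hold 3 arrays each. Regulatory T cells (Treg) were sorted as CD4+, CD25+ and Foxp3+ cells without CD8 or CD11b, conventional CD4+ T cells (Tconv) as Foxp3- cells without CD8 or CD11b, and CD8+ T cells as CD4- cells without CD11b, and each type was taken from the B16 tumour and from the spleen. All mice carried the reporter allele and a tumour, so that the spleen groups are spleens of tumour-bearing mice and no group comes from a mouse without a tumour. The labels do not say whether the replicates of a group came from different mice, and the p-values then measure the spread among these arrays alone, which may be technical. The replicate number is that of a BeadChip, a slide of 6 arrays with 1 from each group, and a group kept its place on all 3 slides: group and place on the slide cannot be told apart. In these bulk samples, fewer cells of a type and less RNA per cell cannot be told apart either.

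In mouse and human, these receptors share a lectin-like domain outside the cell and differ in how they signal inside it. Inhibitory members carry a tyrosine motif that recruits phosphatases such as those encoded by Ptpn6, Ptpn11 and Inpp5d, while activating members lack it and pair with an adaptor, the product of Hcst or of Tyrobp. Most of them read major histocompatibility complex class I proteins or their stress-induced relatives, and they are also found on subsets of T cells, above all CD8+ T cells that have met antigen. In the RefSeq gene table for GRCm38.p6 all members lie on chromosome 6, and among the Klr genes there Klre1, Klrd1, Klrk1, Klrc3, Klrc2 and Klrc1 follow each other in this order.

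The arrays had median signals of 79 to 88.05 and 38% to 45.2% of probes detected at p under 0.05. Foxp3, Cd4 and Cd8b1 followed the labels. Foxp3 (ILMN_1225330) had group means of 9.25 and 8.34 on the log2 intensity scale in tumour and spleen Treg and 4.16 to 4.28 in the other groups, Cd4 (ILMN_1249663) had 8.22 to 8.83 in the CD4+ groups and 4.28 to 4.35 in CD8, and Cd8b1 (ILMN_2664929) had 9.11 and 9.43 in CD8 and 4.23 to 4.44 elsewhere. Il2ra (ILMN_1233474), which encodes CD25, was detected on 2 of 3 tumour Treg and 1 of 3 spleen Treg arrays, and Cd8a (ILMN_2935080) on 2 of 3 tumour CD8 and 0 of 3 spleen CD8 arrays. The floor of the log2 scale lies at 4, the log2 of the offset of 16 added after background correction, and the dimmest detected probe of each array lay between 4.20 and 4.25.

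All 12 member probes entered the test, but Klrc1 (ILMN_2713909), Klrc2 (ILMN_1243869) and Klra7 (ILMN_2608319) met the filter with 3 detected arrays of 18, the minimum. Tumour CD8 was the group with the most detected members: 11 of the 12 probes were detected on all 3 of its arrays, against 5 in spleen CD8, 2 in spleen Treg and in tumour Tconv, and 1 in tumour Treg and in spleen Tconv. In tumour Treg, 9 of the 12 were detected on none of the 3 arrays. The share of all probes detected on all 3 arrays of a group was not counted. Of all probes, single arrays detected 41.6% to 42.9% in tumour CD8, 38% to 40.3% in spleen CD8 and 43.4% to 44.7% in tumour Treg. In the other groups it was 39.6% to 45.2%. The plot of member levels shows 2 patterns, one for Klrg1, with its highest levels in Treg, and one for the other genes, with their highest group means in CD8.

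**Figure D1:**
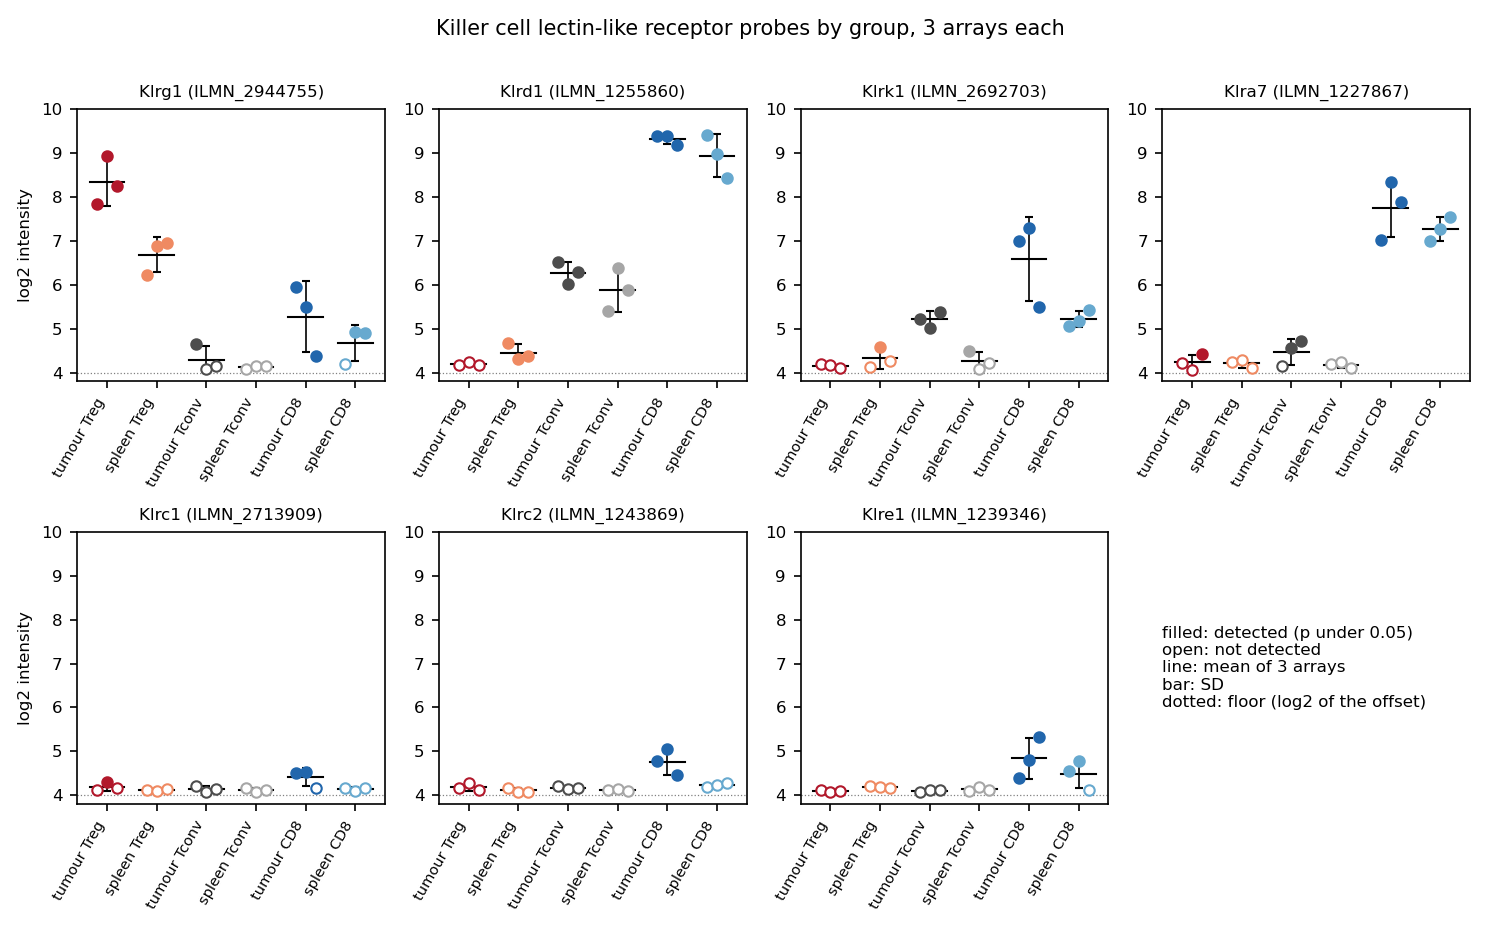
Log2 intensity of 1 probe for each of the 7 genes (for Klrk1 and Klra7 the one with the highest mean) on every array, by group, on a common axis. Points are arrays (filled where detected), lines are means and bars are SD of 3 arrays. Klrg1 is highest in tumour and spleen Treg (means of 8.34 and 6.69), while Klrd1, Klrk1 and Klra7 are highest in the CD8 groups, and Klrc1, Klrc2 and Klre1 stay near the floor of 4.

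Klrg1 encodes an inhibitory receptor for classical cadherins and marks terminally differentiated CD8+ T cells, natural killer cells and a subset of activated Treg. Its only probe, ILMN_2944755, had log2 intensities of 7.84, 8.93 and 8.24 in tumour Treg and of 6.23, 6.88 and 6.95 in spleen Treg. The highest spleen Treg array lay below the lowest tumour Treg array, and both groups lay above every other array. In CD8 the levels were 5.95, 5.49 and 4.38 in tumour and 4.19, 4.91 and 4.91 in spleen, and in Tconv 4.65, 4.08 and 4.16 in tumour and 4.09, 4.14 and 4.14 in spleen. Below the Treg groups, the order tumour CD8, spleen CD8, tumour Tconv and spleen Tconv is one of neighbours whose arrays overlap.

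Klrg1 was 3.14-fold higher in tumour than in spleen Treg (log2 difference 1.65 ± 0.36 SE, n = 3 arrays in each group, limma adjusted p = 0.0267), and higher on each BeadChip (1.62, 2.05 and 1.29). Among the 27474 probes tested, 1.41% were called higher in tumour Treg and 0.702% lower (2.11% in either direction), and among the 12 member probes Klrg1 was the 1 called, higher. The call did not hold without tumour Treg replicate 2 (difference 1.36, adjusted p = 0.125) or 3 (1.70, 0.0602), nor without spleen Treg replicate 1 (1.42, 0.129), 2 (1.75, 0.0652) or 3 (1.78, 0.0554). Without BeadChip 1, 2 or 3 it was 1.67, 1.45 and 1.83, with adjusted p of 0.0718, 0.368 and 0.138. The call was also lost with no detection filter (adjusted p = 0.0547) and in a fit of the 6 Treg arrays alone (0.0824).

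Against Tconv of the same tissue, Klrg1 was 16.5-fold higher in tumour Treg (4.04 ± 0.36, limma adjusted p = 1.90e-05; 1 of 3 tumour Tconv arrays detected it). In spleen it was at least 5.51-fold higher in Treg, with 0 of 3 Tconv arrays detecting it (adjusted p = 0.00125; 0.125 without the second BeadChip and 0.0731 without the third). Such a bound sets the mean of the brighter group against a mean in which each array of the undetected group counts as its own level or as the dimmest detected probe on it, whichever is higher. Against CD8, Klrg1 was 8.36-fold higher in tumour Treg (3.06 ± 0.36, adjusted p = 1.32e-04) and 4.04-fold higher in spleen Treg (2.01 ± 0.36, adjusted p = 0.00652; 0.149 without the second BeadChip and 0.101 without the third).

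Within CD8, the T cells in which KLRG1 is best known, the difference between tumour and spleen was 0.60 ± 0.36 (95% interval -0.17 to 1.38, limma adjusted p = 0.618), and it was 1.76 on BeadChip 1 and -0.53 on BeadChip 3. Within Tconv it was 0.17 ± 0.36 (interval -0.60 to 0.95). Whether the tumour-to-spleen difference of Klrg1 is larger in Treg was tested as a difference of differences, which gave 1.48 ± 0.51 against Tconv (interval 0.38 to 2.57, adjusted p = 0.588) and 1.05 ± 0.51 against CD8 (interval -0.05 to 2.15, adjusted p = 0.640). Neither passed, and the pairs of comparisons share their Treg samples.

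Klrd1 encodes CD94, the chain that pairs with a product of Klrc1 or Klrc2 to make a receptor for Qa-1, the protein of H2-T23. Its probe ILMN_1255860 had log2 intensities of 9.40, 9.39 and 9.19 in tumour CD8 and 9.42, 8.99 and 8.43 in spleen CD8. Tconv came next, with 6.52, 6.02 and 6.29 in tumour and 5.40, 6.38 and 5.88 in spleen. Spleen Treg had 4.67, 4.31 and 4.37 and tumour Treg 4.17, 4.23 and 4.16, and the 3 tumour Treg arrays were the only ones that did not detect it. The 3 cell types did not overlap, and within CD8 and within Tconv the arrays of tumour and spleen did.

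Klrd1 was 8.28-fold higher in CD8 than in Tconv in tumour (log2 difference 3.05 ± 0.25, limma adjusted p = 1.29e-05) and 8.36-fold higher in spleen (3.06 ± 0.25, adjusted p = 1.08e-05). It was lower in Treg than in Tconv, at least 4.14-fold in tumour (adjusted p = 2.01e-04) and 2.70-fold in spleen (-1.43 ± 0.25, adjusted p = 0.00635). Against CD8, Treg were at least 34.3-fold lower in tumour (adjusted p = 1.18e-08) and 22.6-fold lower in spleen (-4.50 ± 0.25, adjusted p = 4.30e-08). The spleen difference between Treg and Tconv was -0.52 without background correction (adjusted p = 0.246), -0.50 in the authors' deposited table (0.273) and -0.75 with an offset of 50 (0.0926). It was -1.12 without the second BeadChip (0.312) and -1.40 without the third (0.203).

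Between tumour and spleen, Klrd1 differed by 0.38 ± 0.25 in CD8 (95% interval -0.15 to 0.91, limma adjusted p = 0.654), by 0.39 ± 0.25 in Tconv (interval -0.14 to 0.92, adjusted p = 0.740) and by -0.26 ± 0.25 in Treg (interval -0.79 to 0.27, adjusted p = 0.847). None of the 3 passed, and each interval holds 0.

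Klrc1 and Klrc2 encode NKG2A and NKG2C, an inhibitory and an activating partner of CD94. Their probes stayed close to the floor on nearly all arrays. Klrc2 (ILMN_1243869) had 4.78, 5.05 and 4.46 in tumour CD8, where all 3 arrays detected it, and 4.07 to 4.29 on the other 15 arrays, none of which did. Klrc1 (ILMN_2713909) had 4.51, 4.53 and 4.17 in tumour CD8 and 4.07 to 4.30 elsewhere, and was detected on 2 tumour CD8 arrays and 1 tumour Treg array. The near-identity of genes in this family means that a probe may also read a neighbour, and probe sequences were not used here.

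The probe of Klrc2 entered the test through the 3 tumour CD8 arrays alone, so that a difference between that group and an undetected one is built into the filter, and its calls are descriptions. In tumour Treg, Klrc2 was at least 1.43-fold below its tumour CD8 level (limma adjusted p = 0.0180). It did not pass between tumour and spleen CD8 (at least 1.43-fold, fitted log2 difference 0.54 ± 0.13, adjusted p = 0.0715) or between CD8 and Tconv in tumour (at least 1.45-fold, 0.59 ± 0.13, adjusted p = 0.0690). Without tumour CD8 replicate 3, its lowest array, both passed (0.69, adjusted p = 0.00948, and 0.75, adjusted p = 0.00835), and they passed on all 18 arrays with no detection filter (adjusted p = 0.0478 and 0.0381). The difference from tumour Treg in turn did not pass without tumour CD8 replicate 1 (adjusted p = 0.0547) or 2 (0.0792) or without tumour Treg replicate 1 (0.0606) or 3 (0.0683), nor without BeadChip 1 (0.240), 2 (0.220) or 3 (0.0951). No comparison called Klrc1, whose tumour Treg and CD8 means differed by -0.21 ± 0.11 (adjusted p = 0.445).

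Klrk1 encodes NKG2D, an activating receptor for stress-induced relatives of class I proteins, the products of the Raet1, H60 and Ulbp1 genes in mouse. It pairs with the adaptors of Hcst and Tyrobp in mouse, and CD8+ T cells show it after activation. Klra7 encodes an inhibitory Ly49 receptor for class I proteins. Because these 2 genes have several probes each and both were highest in CD8, their promoters are shown, from RefSeq on GRCm38.p6, with 250 bases before and 50 after each listed start, written 5′ to 3′ on the gene's strand. Capitals mark the letters TGTGGT or ACCACA (the Runx motif), TCACAC or GTGTGA (the T-box motif) and TTCNNNGAA (the STAT motif), none of which overlap here.
Klrk1 (chr6:129623815-129624114, minus strand): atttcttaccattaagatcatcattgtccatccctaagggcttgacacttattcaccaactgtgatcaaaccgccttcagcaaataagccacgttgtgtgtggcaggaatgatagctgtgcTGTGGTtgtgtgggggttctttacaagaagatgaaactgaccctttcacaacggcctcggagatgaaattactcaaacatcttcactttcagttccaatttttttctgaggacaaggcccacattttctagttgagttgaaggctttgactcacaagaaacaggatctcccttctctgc
Klra7, first listed start (chr6:130231638-130231937, minus strand): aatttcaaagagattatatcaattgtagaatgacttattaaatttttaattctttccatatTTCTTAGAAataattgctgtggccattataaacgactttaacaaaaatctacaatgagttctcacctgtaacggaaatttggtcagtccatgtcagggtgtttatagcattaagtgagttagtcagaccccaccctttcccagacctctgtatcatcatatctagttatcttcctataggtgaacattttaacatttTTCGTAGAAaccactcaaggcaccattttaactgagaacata
Klra7, second listed start (chr6:130233273-130233572, minus strand): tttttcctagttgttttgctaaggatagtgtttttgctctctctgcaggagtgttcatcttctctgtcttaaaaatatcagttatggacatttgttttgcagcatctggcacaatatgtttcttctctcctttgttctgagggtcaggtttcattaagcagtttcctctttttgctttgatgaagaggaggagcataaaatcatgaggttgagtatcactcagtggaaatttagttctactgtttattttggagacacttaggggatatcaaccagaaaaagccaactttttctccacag
The Klrk1 promoter holds 1 Runx match, at base 122 of the 300, and the first Klra7 promoter holds 2 STAT matches, at bases 62 and 259, while the second holds no match. Over the 8 promoters listed for 5 of the 7 members, 5 hold a Runx match, 2 (both of Klre1) a T-box match and 1 a STAT match. The promoters of Klrc2 overlap and hold the same Runx sites, and those of Klre1 overlap and hold the same T-box site, so that these are counted once for each start. Among all 32851 mouse promoters in the table, 16.8% hold the Runx letters, 14.5% the T-box letters and 8.3% the STAT letters on either strand. A match describes the letters and shows no binding.

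Of the 4 Klrk1 probes, ILMN_2692703 had log2 intensities of 7.01, 7.29 and 5.50 in tumour CD8, against 5.06, 5.18 and 5.43 in spleen CD8. Tumour Tconv had 5.22, 5.02 and 5.39, overlapping spleen CD8, and the other 9 arrays had 4.08 to 4.59. The probe ILMN_1236317 followed it, with 6.60, 7.01 and 5.29 in tumour CD8 and 4.48, 4.81 and 4.86 in spleen CD8. Across the 18 arrays the 2 correlated with r = 0.977, and tumour CD8 replicate 3 was the lowest of its group in both.

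The dimmer probe ILMN_2888493 had 6.03, 5.22 and 5.67 in tumour CD8 and 4.36, 4.70 and 5.13 in spleen CD8. For ILMN_1226816 the levels were 5.12, 5.29 and 5.28 in tumour CD8 and 4.80, 4.85 and 5.16 in spleen CD8, so that here the tissues overlapped. In these 2 probes tumour CD8 replicate 3 was not the lowest of its group. The 6 pairs of Klrk1 probes correlated with r from 0.769 to 0.977 over the arrays, which share the 6 groups.

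**Figure D2:**
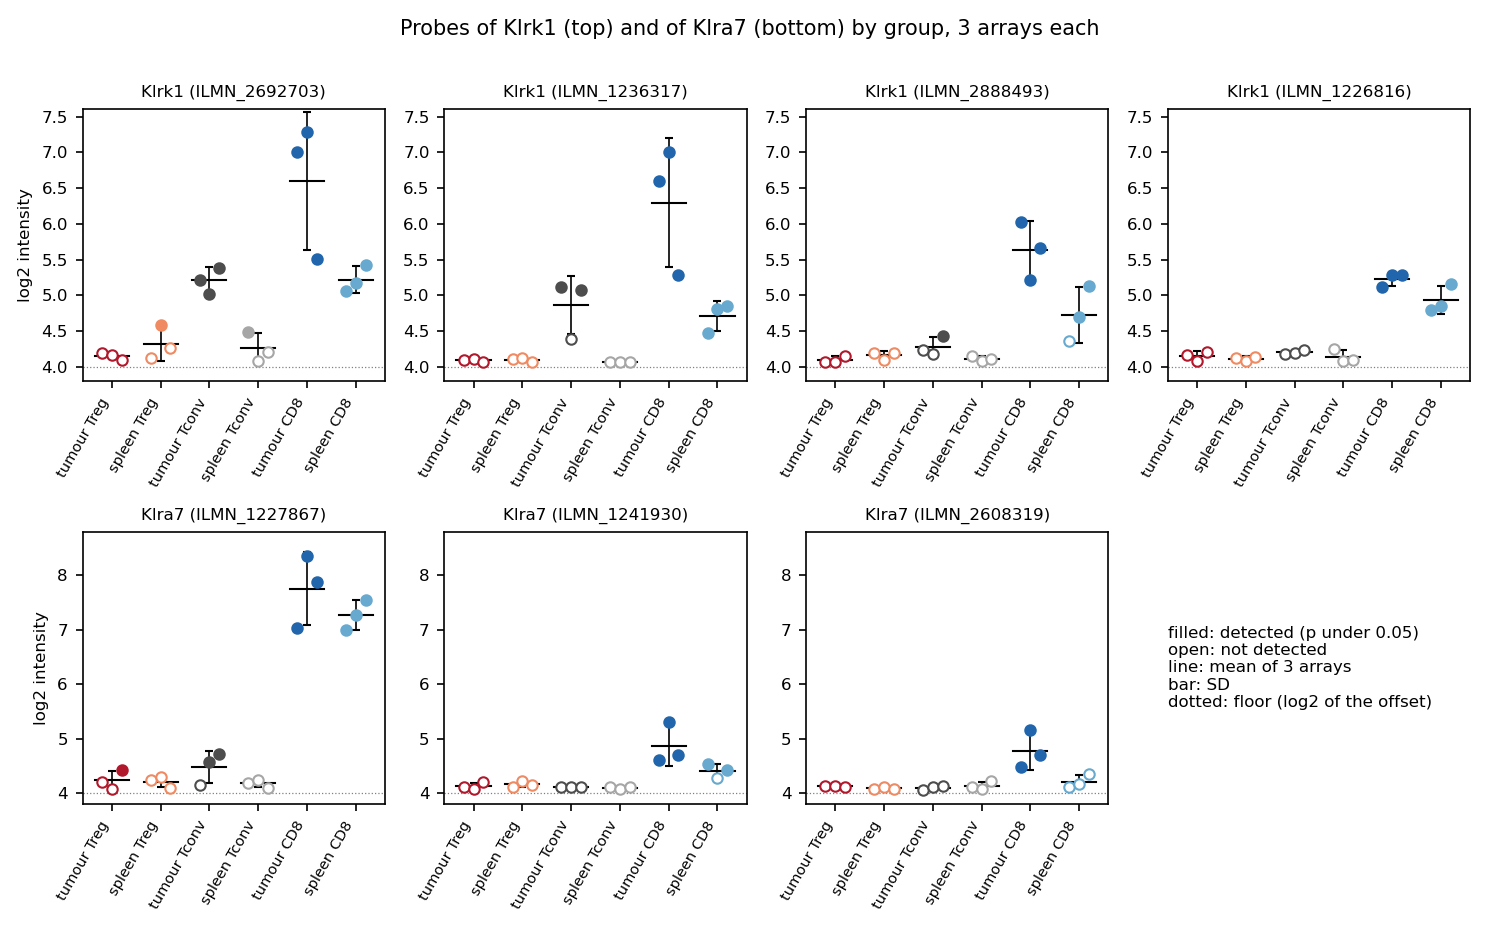
Log2 intensity of the 4 Klrk1 probes (top row) and the 3 Klra7 probes (bottom row) on every array, by group, with an axis of its own for each gene. Points are arrays (filled where detected), lines are means and bars are SD of 3 arrays. All 7 probes are highest in tumour CD8, and for Klrk1 ILMN_2692703 and ILMN_1236317 the third tumour CD8 array (5.50 and 5.29) lies well below the others.

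Klrk1 was higher in tumour than in spleen CD8 on 2 of its 4 probes, by 3.00-fold on ILMN_1236317 (log2 difference 1.59 ± 0.31, limma adjusted p = 0.0258) and by 1.88-fold on ILMN_2888493 (0.91 ± 0.19, adjusted p = 0.0401). These were the 2 of the 12 member probes called in this comparison, both higher, where 0.644% of all probes were called higher and 0.218% lower (0.863% in either direction). On ILMN_2692703 the difference was 1.38 ± 0.32 (adjusted p = 0.0701) and on ILMN_1226816 it was 0.29 ± 0.11 (adjusted p = 0.336). All 4 probes pointed the same way on each of the 3 BeadChips, with 2.12, 2.20 and 0.43 for ILMN_1236317.

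These calls turned on single arrays. Without tumour CD8 replicate 3 the difference of Klrk1 on ILMN_2692703 was 1.93 and passed (adjusted p = 1.11e-04). On ILMN_1236317 the call was lost without tumour CD8 replicate 1 (1.44, adjusted p = 0.102) or 2 (1.23, 0.0964) and without spleen CD8 replicate 1 (1.47, 0.0941) or 2 (1.63, 0.0580). Of the 21 fits that left out arrays, ILMN_2888493 passed only in those without tumour Tconv replicate 2, tumour CD8 replicate 2 or spleen CD8 replicate 3. In the 18 others its difference ran from 0.53, without the first BeadChip (adjusted p = 0.389), to 1.11, without the second (0.162), and the lowest adjusted p was 0.0502. ILMN_1236317 was lost without the first (1.32, 0.329) and second (1.28, 0.266) BeadChip, and both probes without background correction, with the authors' deposited table and with no detection filter (adjusted p from 0.0515 to 0.0715).

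Between cell types, all 4 Klrk1 probes were lower in Treg than in CD8 of the tumour: at least 5.19-fold on ILMN_2692703 (limma adjusted p = 3.54e-04), at least 4.22-fold on ILMN_1236317 (6.41e-04), at least 2.67-fold on ILMN_2888493 (2.19e-04) and at least 2.01-fold on ILMN_1226816 (4.00e-05). No tumour Treg array detected any of them. In spleen the same comparison called 1 of the 4 Klrk1 probes, ILMN_1226816, at least 1.65-fold lower in Treg (adjusted p = 5.95e-04). Against Tconv, CD8 were higher in tumour on ILMN_2888493 (1.36 ± 0.19, adjusted p = 0.00357) and ILMN_1226816 (at least 1.98-fold, adjusted p = 2.99e-04), and in spleen on ILMN_1226816 (at least 1.62-fold, adjusted p = 0.00223). Leaving out a whole BeadChip ended several of these Klrk1 calls: the Treg difference in tumour on ILMN_1236317 (BeadChip 1, adjusted p = 0.0640) and ILMN_2692703 (BeadChip 2, 0.0506), the Tconv difference in tumour on ILMN_2888493 (any, 0.0982 to 0.172), and those of ILMN_1226816 other than tumour Treg against CD8 (BeadChip 2 or 3, 0.0650 to 0.197). The spleen difference of ILMN_1226816 between CD8 and Tconv was also lost with median scaling (0.65, adjusted p = 0.0696). ILMN_1226816 was detected on CD8 arrays alone and entered the test through them, so its calls against CD8 are descriptions. Outside CD8, ILMN_1236317 and ILMN_2888493 were detected on 2 and 1 tumour Tconv arrays, too few for the filter. Their calls against CD8 are descriptions too.

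Klrk1 in tumour Tconv was above its spleen level on 2 probes by differences that did not pass. On ILMN_2692703 tumour Tconv exceeded spleen Tconv by 0.95 ± 0.32 (95% interval 0.26 to 1.64, limma adjusted p = 0.319) and on ILMN_1236317, which no spleen Tconv array detected, by at least 1.56-fold (fitted 0.79 ± 0.31, interval 0.12 to 1.47, adjusted p = 0.438). On ILMN_2888493 and ILMN_1226816 the differences were 0.17 ± 0.19 and 0.07 ± 0.11. Without tumour CD8 replicate 3, which is no array of this comparison but sets part of the shared spread, the first of these passed (0.95, adjusted p = 0.00963).

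Klra7 had log2 intensities on ILMN_1227867 of 7.03, 8.35 and 7.88 in tumour CD8 and of 7.00, 7.27 and 7.55 in spleen CD8. The other 12 arrays had 4.07 to 4.72, the highest of them in tumour Tconv (4.14, 4.56 and 4.72, detected on 2 of 3). The 2 dimmer probes followed the same groups, with 4.61, 5.30 and 4.70 in tumour CD8 and 4.52, 4.28 and 4.42 in spleen CD8 on ILMN_1241930, and with 4.48, 5.16 and 4.69 and 4.11, 4.16 and 4.34 on ILMN_2608319. Pairs of Klra7 probes correlated with r from 0.757 to 0.937 over the 18 arrays. The Ly49 genes are near-identical, so that these levels may be shared with other Klra genes.

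On ILMN_1227867, Klra7 was 9.72-fold higher in CD8 than in Tconv in tumour (3.28 ± 0.26, limma adjusted p = 1.05e-05) and at least 8.26-fold higher in spleen (adjusted p = 1.38e-05). Treg of the tumour lay 11.5-fold below CD8 (-3.52 ± 0.26, adjusted p = 1.59e-06; 1 of 3 Treg arrays detected it) and at least 8.16-fold lower in spleen Treg than in spleen CD8 (adjusted p = 4.77e-06). Between tumour and spleen CD8 it differed by 0.48 ± 0.26 (95% interval -0.07 to 1.03, adjusted p = 0.557). CD8 did not overlap the CD4+ groups in either tissue. No tissue difference passed on any Klra7 probe, save that ILMN_2608319 passed in CD8 without tumour CD8 replicate 1 (fitted 0.72, adjusted p = 0.0300, against 0.57 ± 0.14 and 0.0853 with it, at least 1.41-fold).

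The dim Klra7 probes gave smaller bounds. ILMN_1241930 was detected on CD8 arrays alone and ILMN_2608319 on the 3 tumour CD8 arrays alone, so both entered the test through the group where they are high, and their calls against it are descriptions. In tumour, Treg were at least 1.57-fold lower than CD8 on ILMN_1241930 (limma adjusted p = 0.00842) and at least 1.47-fold lower on ILMN_2608319 (adjusted p = 0.0167). Neither passed without any one whole BeadChip (adjusted p from 0.0581 to 0.249), and the latter not without tumour Treg replicate 2 (adjusted p = 0.0540) or 3 (0.0525) or tumour CD8 replicate 2 (0.0542). CD8 were at least 1.56-fold higher than Tconv in tumour on ILMN_1241930 (adjusted p = 0.0333), a call lost in 7 of 8 other settings, among them the BeadChip as a block (adjusted p = 0.0588), median scaling (0.0625), the offset of 50 (0.0657) and the stricter filter (0.0561), and in 14 of the 21 fits that left out arrays (up to 0.455), and it held without tumour Treg replicate 1, tumour CD8 replicate 1 or 3, spleen Tconv replicate 2 or any spleen CD8 replicate.

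Klre1 encodes a receptor that pairs with a product of Klri1 or Klri2 in mouse. Its probe ILMN_1239346 had 4.40, 4.80 and 5.33 in tumour CD8 and 4.55, 4.77 and 4.13 in spleen CD8, with 4.07 to 4.21 on the 12 arrays of CD4+ cells, none of which detected it. In the tumour, Treg lay at least 1.54-fold below CD8 (limma adjusted p = 0.0426). The probe was detected on CD8 arrays alone, so that it too entered the test through CD8. The call was lost with the BeadChip as a block (adjusted p = 0.0607), with the offset of 50 (0.0633), with no detection filter (0.0596) and in 17 of the 21 fits that left out arrays (adjusted p up to 0.321), and it held without tumour CD8 replicate 1 or any spleen CD8 replicate. Against Tconv in tumour it passed without tumour CD8 replicate 1 (fitted 0.96, adjusted p = 0.0318) and not with it (at least 1.53-fold, fitted 0.74 ± 0.19, adjusted p = 0.171). Klre1 did not pass between tumour and spleen CD8 (0.36 ± 0.19, adjusted p = 0.550).

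Counted over the members, tumour Treg against tumour CD8 was the comparison with the most calls: 1 of the 12 probes (Klrg1) was higher in Treg and 10 were lower, where 2.1% of all probes were called higher and 1.28% lower (3.38% in either direction). Of the 10, Klrc2, Klre1, Klra7 ILMN_1241930 and ILMN_2608319 and Klrk1 ILMN_1226816 were detected on CD8 arrays alone and entered the test through them. Klrk1 ILMN_1236317 and ILMN_2888493 were otherwise detected on 2 and 1 tumour Tconv arrays, so they too met the filter through CD8. This can raise the count of 10, so it is not read against the background. In spleen the counts were 1 higher and 3 lower, against 1.31% and 0.848% of all probes (2.16% in either). CD8 against Tconv had 5 probes higher and 0 lower in tumour (0.218% and 0.16% of all probes, 0.379% in either) and 3 higher and 0 lower in spleen (0.4% and 0.244%, 0.644% in either). Treg against Tconv had 1 higher and 1 lower in tumour (1.51% and 0.735%, 2.25% in either) and likewise in spleen (0.903% and 0.386%, 1.29% in either). Klrk1 ILMN_2888493 and ILMN_1226816 and Klra7 ILMN_1241930 are among the probes counted for CD8 against Tconv and met the filter through CD8. The members were listed with results of these data known, so these counts describe the list.

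In Tconv, tumour against spleen, 0 of the 12 probes passed with limma, where 0.91% of all probes were called (0.761% higher and 0.149% lower). At an unadjusted p under 0.05 there were 2 of the 12, a threshold at which all probes were not counted. The median log2 difference of the 12 was 0.12, against -0.01 over all probes. In CD8 it was 0.51, against -0.01 over all probes, and in Treg 0.01, against -0.01. In CD8, 8 of the 12 had an unadjusted p under 0.05, again with no count of all probes beside it. As the members were listed with results of these data known, this number describes the list alone.

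**Figure D3:**
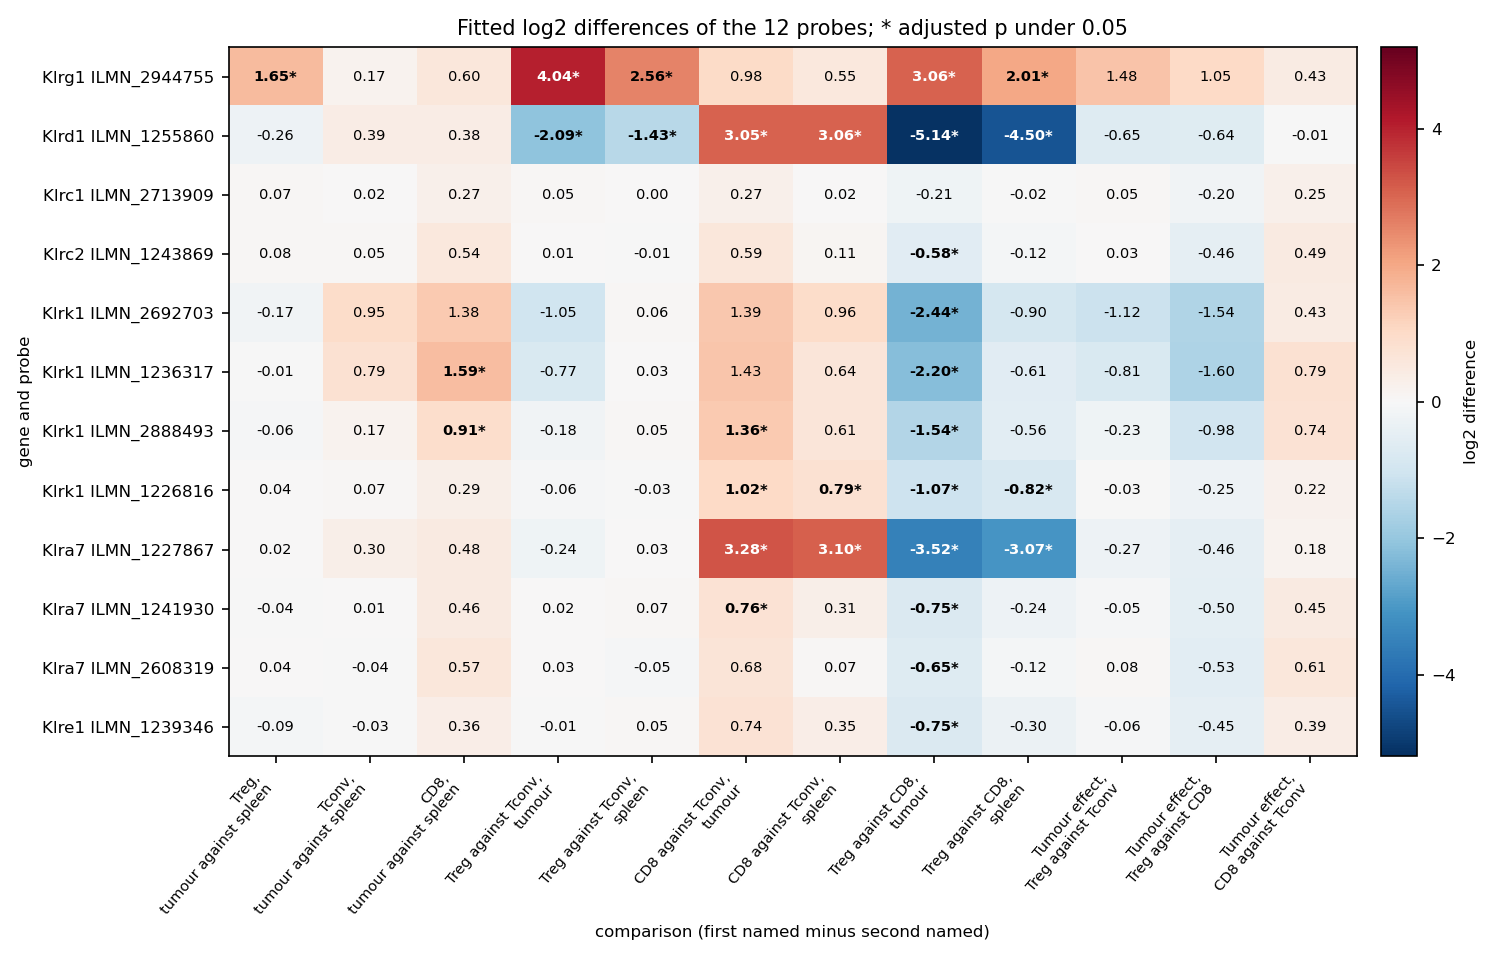
Fitted log2 difference of each of the 12 probes (rows) in each of the 12 comparisons (columns; the last 3 are differences of the tumour-to-spleen difference between cell types), with colour and number giving the value and an asterisk marking adjusted p under 0.05. Fitted values against a group with no detected array are no bounds. Klrg1 is positive in the 5 simple Treg comparisons (1.65 to 4.04, all called) and in the 2 Treg differences of differences (1.48 and 1.05, not called). In tumour Treg against tumour CD8, 10 of the 11 other probes are called lower (1.28% of all probes). Several of the 10 were detected on CD8 arrays alone and entered the test through them, so this count is not read against the background.

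Whether the tissue difference differs between cell types was tested directly, and 0 of the 12 probes passed in each of the 3 differences of differences with limma. At an unadjusted p under 0.05 there were 2 for Treg against Tconv, 6 for Treg against CD8 and 4 for CD8 against Tconv. All probes were not counted at that threshold, so these member counts have no background here. At an adjusted p under 0.05, 0.12%, 0.175% and 0.0182% of all probes were called. These divide into 0.0546% higher and 0.0655% lower, 0.109% higher and 0.0655% lower, and 0.00364% higher and 0.0146% lower. The lowest p-values were those of Klrk1 for Treg against CD8: -1.60 ± 0.44 on ILMN_1236317 (95% interval -2.54 to -0.65, adjusted p = 0.249), -0.98 ± 0.27 on ILMN_2888493 (interval -1.56 to -0.39, adjusted p = 0.258) and -1.54 ± 0.46 on ILMN_2692703 (interval -2.53 to -0.56, adjusted p = 0.303). Without tumour CD8 replicate 3 the first and the last passed (-2.10, adjusted p = 0.00433, and -2.09, adjusted p = 0.00211).

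The other Klr genes had 13 of 38 probes that entered the test, and 3 genes among them were called anywhere. For Treg against CD8, 2 of the 13 were lower in tumour and 1 in spleen, where 1.28% and 0.848% of all probes were. In CD8, 1 of the 13 was higher in tumour than in spleen, where 0.644% of all probes were. Klra3 (ILMN_1237580), which encodes another inhibitory Ly49 receptor, was lower in Treg than in CD8 in tumour (-3.52 ± 0.47, limma adjusted p = 3.54e-04) and in spleen (-2.79 ± 0.47, adjusted p = 0.00353). Its levels ran from 7.39 to 8.33 in tumour CD8 and from 4.08 to 4.48 in tumour Treg, and tumour Tconv lay between, at 5.23 to 6.16. Klra16 (ILMN_3005175) was lower in tumour Treg than in tumour CD8 (-1.50 ± 0.25, adjusted p = 0.00248). Klrb1f (ILMN_2694646) was at least 1.64-fold higher in tumour than in spleen CD8 (adjusted p = 0.0398). This call was lost in 7 of 9 other settings, among them the BeadChip as a block (adjusted p = 0.0604), and in 17 of the 21 fits that left out arrays.

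Of 13 listed signalling partners, 11 had a probe, and 19 of their 22 probes were tested, with 0 to 3 called in a comparison. Of all probes, 0.0182% to 3.38% were called in a comparison. The 3 were higher in Treg than in CD8 of the spleen, where 1.31% of all probes were called higher and 0.848% lower. Ptpn6 (ILMN_1220996), the phosphatase of inhibitory receptors, was lower in tumour than in spleen Treg (-0.81 ± 0.15, limma adjusted p = 0.00915) and lower in tumour Treg than in tumour CD8 (-0.67 ± 0.15, adjusted p = 0.0234). Hcst (ILMN_1220418), the adaptor of NKG2D, was lower in tumour Treg than in tumour CD8 (-0.61 ± 0.15, adjusted p = 0.0305), with means of 9.85 and 10.5. When arrays were scaled by their medians and not by quantiles, the Ptpn6 differences were -0.30 (adjusted p = 0.647) and -0.20 (0.769) and that of Hcst -0.29 (0.404).

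Inpp5d (ILMN_2959191), a lipid phosphatase of inhibitory receptors, was higher in tumour than in spleen CD8 (1.16 ± 0.22, limma adjusted p = 0.0217) and higher in spleen Treg than in spleen CD8 (1.02 ± 0.22, adjusted p = 0.0241). The same spleen comparison called Pik3r1, a subunit of the kinase that Hcst recruits, on ILMN_2473531 (0.91 ± 0.19, adjusted p = 0.0196) and ILMN_3114641 (0.94 ± 0.22, adjusted p = 0.0360). Leaving out arrays ended the partner calls in 4 to 11 of the 21 fits each. With median scaling the 4 calls of Inpp5d and Pik3r1 were lost too, at adjusted p from 0.185 to 0.263 and differences of 0.85 to 1.26. Tyrobp (ILMN_2867147), the other adaptor, was called in no comparison, with means of 7.48, 7.97 and 8.41 in tumour Treg, Tconv and CD8 and of 5.97 to 6.27 in spleen.

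Of 18 listed ligand genes, 12 had a probe, and 15 of their 19 probes were tested. Cdh1 (ILMN_2628629), which encodes E-cadherin, the ligand of KLRG1, was the only one called, with its high levels in CD8: CD8 were 2.37 ± 0.29 above Tconv in spleen (limma adjusted p = 6.74e-04), and Treg minus CD8 was -1.74 ± 0.29 in tumour (adjusted p = 0.00254) and -2.36 ± 0.29 in spleen (adjusted p = 2.57e-04). It was 1 of the 15 probes in each of these comparisons, where 0.4%, 1.28% and 0.848% of all probes were called in the same direction. Between CD8 and Tconv in tumour, 0 of the 15 ligand probes were called, and 1 was called higher with the BeadChip as a block. The group means of Cdh1 were 7.02 and 7.09 in tumour and spleen CD8, and 5.28 and 4.72 in tumour and spleen Treg, where Klrg1 was highest. Spleen Tconv, whose arrays did not detect Klrg1, also had a Cdh1 mean of 4.72. The tested probes of H2-T23, H2-D1, H2-K1, Raet1d and Ulbp1 passed in no comparison. Lck, Sh2d1a, Raet1a, Raet1b, Raet1c, H60a, H60b and H60c were not analysed here.

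Since the members are natural killer cell genes, markers of those cells stand beside them. Ncr1 and Klri2 were detected on 0 of the 18 arrays, with levels of 4.07 to 4.35 and 4.06 to 4.32. Klrb1c (ILMN_2952650), which encodes NK1.1, was detected on all 6 CD8 arrays at 4.50 to 5.28 and was called in no comparison. The summed level of the 7 marker genes with a probe (of 9 listed), on the linear scale with the offset of 16 subtracted and 1 probe a gene, was 329 to 467 in tumour CD8 and 386 to 485 in spleen CD8, and 26.1 to 182 in the CD4+ groups.

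Among these markers Eomes and Cd160 are also expressed by CD8+ T cells, and both were called higher in CD8 than in Tconv in both tissues. Of the 21 fits that left out arrays, 6 lost the Cd160 call in tumour and 5 lost it in spleen. Eomes (ILMN_1251446), a T-box transcription factor, was higher in CD8 than in Tconv by 2.80 ± 0.24 in tumour (limma adjusted p = 2.00e-05) and 2.47 ± 0.24 in spleen (adjusted p = 5.73e-05). Itga2 (ILMN_2877796) was higher in tumour than in spleen Treg (1.44 ± 0.33, adjusted p = 0.0323), by 2.16, 1.76 and 0.41 on the 3 BeadChips, a call lost in 2 of 9 other settings and 6 of the 21 fits that left out arrays (adjusted p up to 0.375). Unlike Eomes and Cd160, it was also higher in tumour Treg than in tumour CD8 (1.30 ± 0.33, limma adjusted p = 0.0402). That call was lost in 2 of 9 other settings and 9 of the 21 fits. Zbtb16, the marker of natural killer T cells, was detected on all 3 arrays of no group. The part of such cells in the levels of Klrb1c, Klrd1 or Klra7 was not tested.

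**Figure D4:**
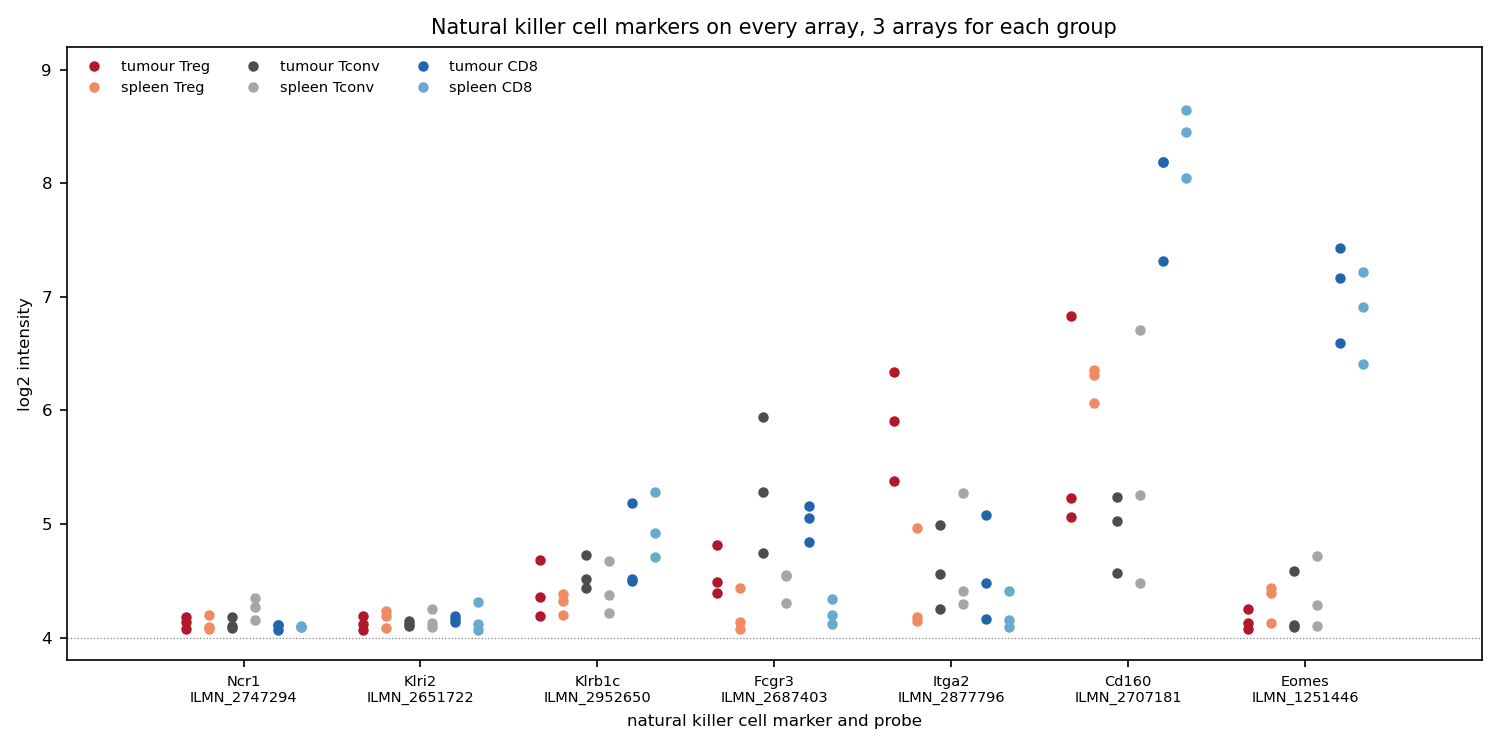
Log2 intensity of 7 natural killer cell markers (horizontal axis, with probe) on every array, coloured by group, with 3 arrays for each group and the floor as a dotted line. Ncr1 and Klri2 stay at 4.06 to 4.35 in every group, Klrb1c reaches 5.28 in spleen CD8, and Cd160 and Eomes are highest in the CD8 groups.

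Of the 14 macrophage and monocyte probes tested, 1 was called higher in tumour than in spleen in Treg, 1 in Tconv and 3 in CD8, and 0 lower. With the BeadChip as a block these were 5, 5 and 7 higher and 0 lower. The median log2 difference of the 14 was 1.08 in Treg, 1.48 in Tconv and 1.95 in CD8, against -0.01 over all probes in each. The summed level of the 9 macrophage and monocyte markers with a probe was 502 to 1700 in the tumour groups and 36.1 to 694 in the spleen groups, ranges that overlap, with Tyrobp among the 9, and each of the 9 was detected on at least 1 array of every tumour group. Fcer1g (ILMN_2748875) was called higher in tumour in all 3 cell types, by at least 2.28-fold in Treg, by 1.45 ± 0.28 in Tconv and by 1.90 ± 0.28 in CD8 (limma adjusted p = 0.0288, 0.0193 and 0.00283). Of the 7 melanoma probes tested, 3 were called higher in tumour than in spleen in Treg, 0 in Tconv and 0 in CD8. Of all probes, 1.41%, 0.761% and 0.644% were called higher there in the main setting. Melanoma marker sums were 49.6 to 436 in tumour (224 to 346 in tumour Treg) and 21 to 76.3 in spleen, and erythroid sums 6.91 to 1340 in tumour and 2670 to 11400 in spleen. These values move with every tumour-to-spleen difference above, those of Klrg1 and Klrk1 included, and their part in the differences was not tested.

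The genes whose pattern over the 18 arrays was most like that of the member probes with a range of at least 1 among their group means (Klrg1, Klrd1, the 4 of Klrk1 and 1 of Klra7, and none of Klrc1, Klrc2 or Klre1) were taken from 3532 probes with the same minimum range, by Pearson correlation (log2 scale). The arrays share their 6 groups, so that a high r describes groups as much as arrays. For Klrg1 the closest were Dusp4 (r = 0.954), a phosphatase of MAP kinases, Tnfrsf9 (0.935), the costimulatory receptor 4-1BB, Neb (0.931), Matk (0.923) and Cmtm7 (0.920). Dusp4 had group means of 8.02 in tumour Treg, 6.70 in spleen Treg and 4.44 to 5.36 in the other groups, which is the order of Klrg1 at the top.

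For Klrd1 the closest were a probe named Siat10 (r = 0.961), an older symbol of St3gal6 in the RefSeq table, the St3gal6 probe itself (0.938), a sialyltransferase, Lcn4 (0.938), Samd3 (0.932) and Cd8b1 (0.918). Klra7 (ILMN_1227867) was closest to Cd8b1 (0.977), Crtam (0.966), Eomes (0.957), Xcl1 (0.938), a chemokine of activated CD8+ T cells, and Samd3 (0.934). Klrk1 (ILMN_1226816) had nearly the same list, Crtam (0.974), Eomes (0.967), Cd8b1 (0.955), Samd3 (0.946) and Xcl1 (0.931).

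The 2 Klrk1 probes with low levels in tumour CD8 replicate 3 shared Gas7, Spry2 and Tcrg among their neighbours. For ILMN_1236317 these were Spry2 (r = 0.890), Tcrg (0.881), Clec4d (0.875), Ifng (0.872) and Gas7 (0.871), all with their highest group mean in tumour CD8, as for Ifng, the gene of interferon gamma, with 7.39 there and 4.29 in spleen CD8. For ILMN_2692703 they were Samd3 (0.859), Dlg5, Gas7, Spry2 and Tcrg (0.846). ILMN_2888493 stood between, with Eomes (0.884), Spry2, Dlg5, Crtam and Dmrta1 (0.872).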

How the data were processed

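Gene expression was measured on 18 Illumina mouse BeadChip arrays of sorted T cells, from 2.5 ng of RNA amplified by whole-transcript amplification, per the labels' protocols. The deposited table holds the mean bead intensity, the number of beads, the bead signal SD and a detection p-value for each probe and array, per the file headers, with no normalization between arrays. A second deposited table holds the authors' intensity values, on a linear scale by their values (column medians of 83.54 to 85.88), and how it was normalized is not stated in the labels or headers. Member probes had 20 to 71 beads on an array, with a bead standard error of at most 4.70% of the signal. The number of arrays limits the precision.

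Signals were background-corrected by normexp with the background inferred from detection p-values, an offset of 16 was added, and values were quantile-normalized and put on the log2 scale (limma 3.58.1, R 4.3.3). Probes detected at p under 0.05 on at least 3 arrays were tested, 27474 of 46237. One model of 6 group means over the 18 arrays, with 12 residual degrees of freedom, gave 12 comparisons, each adjusted over the probes tested by Benjamini-Hochberg at 0.05. The code was tested on simulated data. The platform annotation named 1 gene for 35784 probes, several for 0 and none for 10453. Of these names, 28620 were updated through Entrez IDs and 2637 through accessions, while 4527 were kept.

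Replicate numbers go with the BeadChip in the array names. The mean correlation of residuals was 0.0423 between arrays of one BeadChip (above 0.1 in 5 of 45 pairs) and -0.0209 between arrays of different ones, and the number as a block is an alternative. Other alternatives were the normalization, background correction, offset, detection filter, the authors' table, 1 probe per gene, the arrays fitted and leaving out arrays. Members and gene lists were chosen with earlier results of these data known. All member probes are named. Values for other Klr genes, partners and ligands are given where past the threshold, and Tyrobp, the H2 genes, Raet1d, Ulbp1 and Fcer1g were added after their values were seen. Lists for natural killer cells, macrophages and monocytes, melanoma, erythroid cells and B cells are given as summed levels. Of the sorting genes, levels or detection of single probes are given for Foxp3, Cd4, Cd8b1, Il2ra and Cd8a. For NK T cells 1 gene was listed, and for gamma delta T cells Sox13 was detected on 0 arrays and Blk on all 3 arrays of no group. Of the B cell list 2 of 4 genes had a probe, with sums of 3.63 to 196.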

Additional observations from a re-analysis of the deposited data

How the results depend on the processing

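None of 69 results of single probes (members and listed genes called in the main setting or in an alternative) changed direction under the alternatives run. A change of filter, 1 probe per gene, the block or a fit of the compared arrays alone left the fitted differences as they were. Leaving out arrays of groups outside a comparison did so too, so no reversal was possible in these. Of the 12 member probes, the number called in Treg between tumour and spleen went from 1 to 0 with no detection filter and when the arrays of the 2 groups alone were fitted. In CD8 between tumour and spleen it went from 2 to 0 without background correction, with the authors' table, with 1 probe per gene and with those arrays alone. The setting of 1 probe per gene leaves out both called Klrk1 probes. With no detection filter both Klrk1 calls were lost, and the count was 1, a gained call of Klrc2 (limma adjusted p = 0.0478). For Treg against Tconv in spleen it went from 2 to 1 without background correction, with the offset of 50, with the authors' table and with those arrays alone. With 1 probe per gene it went from 5 to 2 for CD8 against Tconv in tumour and from 11 to 6 for Treg against CD8 in tumour, and fewer probes are counted there by construction. With those arrays alone, which leaves fewer residual degrees of freedom, it was 1 for CD8 against Tconv in tumour and in spleen, and 5 for Treg against CD8 in tumour. For the other changes the cause was not tested. Leaving out arrays gave 0 to 1 in Treg, 0 to 1 in Tconv and 0 to 3 in CD8 between tumour and spleen, 2 to 4 and 0 to 2 for Treg against Tconv in tumour and spleen, 2 to 8 and 2 to 4 for CD8 against Tconv, 6 to 11 and 2 to 5 for Treg against CD8, and 0 to 2 for the difference of differences of Treg against CD8 and 0 for each of the others. Without tumour CD8 replicate 3 the counts were 1 in Tconv and 3 in CD8 between tumour and spleen, 4 for Treg against Tconv and 8 for CD8 against Tconv in tumour, and 4 for CD8 against Tconv and 5 for Treg against CD8 in spleen. With the replicate block, 4 probes were called for CD8 against Tconv and 10 for Treg against CD8 in tumour, with Klra7 (ILMN_1241930, adjusted p = 0.0588) and Klre1 (0.0607) lost, and no other member call changed. Of the 69, the arrays of the groups compared alone kept 37 on their side of the threshold, no detection filter and median scaling 57 each, the authors' table and no background correction 64 each, the offset of 50 65, the stricter filter 67 and the block 66. Median scaling moved the median difference of all probes to 0.10 in Treg between tumour and spleen and 0.11 for Treg against Tconv in tumour, and the calls over all probes from 388 higher and 193 lower to 865 and 74, and from 416 and 202 to 1001 and 90. For Treg against CD8 in tumour they moved from 577 and 351 to 1168 and 160. Probes close to the floor, above all Klrc1, Klrc2, Klre1 and the dim Klra7 probes, are limited by signal over background.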
